A study of Mus musculus with 4 samples.

Results

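The cytosolic ribosomal protein genes encode the proteins of the 40S and 60S ribosomal subunits. They were chosen by name: every gene in the count table whose symbol is Rps or Rpl followed by a number (with an optional a, l or x ending), Rplp and a number, or Rpsa. The rule took 84 of the 21495 genes. Of these, 77 were treated as the core, 31 in the small and 46 in the large subunit, and 7 paralogs were kept apart: Rpl39l, Rpl10l, Rps27l, Rpl36al, Rpl22l1, Rpl7l1 and Rpl3l. The names did not take Fau and Rps27rt, which are given on their own below.

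The counts came from single cells of mouse gonads and the attached mesonephros, taken when the bipotential gonad chooses between testis and ovary. The study asked what happens to that choice in XY embryos without the miR-17~92 microRNA cluster. Each sample pooled several embryos, and there were 4 samples, all labelled with the strain C57BL/6 x 129S4/SvJae: an XY control at E11.5, an XY KO at E11.5 (the E11.5 KO), an XY KO at E11.75 (the E11.75 KO) and an XX control at E11.5. Because each group was 1 sample, no comparison could be tested across samples, and the intervals below cover counting error only. The XY KO embryos carried a CRISPR deletion of the cluster in every cell and were grown wholly from edited G4 embryonic stem cells by tetraploid complementation. The XY controls were grown the same way from the unedited parental G4 line, while the XX controls came from matings between C57BL/6J males and 129 females. No control was collected at E11.75, so in that sample genotype and stage cannot be told apart, and in the XX sample sex cannot be told apart from the way the embryos were made.

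The ribosome joins a small subunit, which reads the messenger RNA, to a large subunit, which forms the peptide bond. Its proteins are needed in nearly equal numbers, and their messenger RNAs are short, very abundant and present in every cell. Most vertebrate ribosomal protein messenger RNAs begin with a C followed by a run of pyrimidines, the 5′ terminal oligopyrimidine (TOP) motif, through which mTOR signalling and the protein LARP1 control their translation and stability.

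The TOP motif is the sequence feature that most ribosomal protein messenger RNAs are known to share, so the first bases of several are shown. The sequences are from the RefSeq start sites on GRCm38.p6, which held 64 of the 84 genes. Each runs from 5 bases before the annotated start, 5′ to 3′ on the gene's own strand, and capitals mark the C at the start and the pyrimidines after it. The first is Rps6, whose protein is the classical target of S6 kinase downstream of mTOR, and the next 5 were picked for having the run among the core genes that stand out in the comparisons below. Rps2, Rpl10, Rpl4, Rplp0, Rpl12, Rpl19, Rpl37a and Rps28 stand out there as well and do not have it at the annotated start, and Rplp0 is shown as an example of these.
Rps6 (chr4:86857348-86857372, minus strand): cgggcCTCTTTTTCgtgacgcctcc
Rpl15 (chr14:18270967-18270991, minus strand): gccttCTTCCTTTCCTCTggcggca
Rpl35 (chr2:39005112-39005136, minus strand): ctttcCTCTTTCTCTCgaaccaggc
Rpl38 (chr11:114668575-114668599, plus strand): tcgttCTTTCCCCgttctcttcggt
Rplp2 (chr7:141447646-141447670, plus strand): tcttcCTTTCgccgccggacgccgc
Rps27 (chr3:90213629-90213653, minus strand): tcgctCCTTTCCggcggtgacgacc
Rplp0 (chr5:115559462-115559486, plus strand): ttcgaggaccgcctggttctcctat
The next 4 belong to the paralogs that were highest in germ cells in all 4 samples, and none has the run at its annotated start.
Rpl39l (chr16:10170223-10170247, plus strand): tttccggatttccggtggtcgccat
Rpl10l (chr12:66284382-66284406, minus strand): attttgcggctggcggtgggcacgc
Rps27l (chr9:66946081-66946105, plus strand): ccgccgcctctatcccggaagttgc
Rpl36al (chr12:69184048-69184072, minus strand): gctcaggttcagttccgacttccgc
A C followed by at least 4 pyrimidines stood exactly at an annotated start in 13 of 57 core genes (22.8%), in 0 of 7 paralogs, in 3 of 11 TOP genes outside the ribosome (27.3%) and in 462 of 15002 genes of the count table (3.08%). When the run could begin up to 5 bases to either side, the shares were 47.4% of core genes, 28.6% of paralogs and 23.2% of all genes. Only the gene's own strand was searched, and a match describes the annotated letters, not the start used in these cells.

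The 4 samples held 23527 (XY control), 17057 (the E11.5 KO), 8492 (the E11.75 KO) and 3669 cells (XX control), with between 37841392 and 105192238 counted molecules (unique molecular identifiers, UMIs) each. The median UMIs per cell lay between 3893 and 4763 in the XY samples and was 15509 in the XX sample, whose cells were filtered differently. Between 17 and 123 barcodes were shared by any pair of samples, at most 0.954% of the smaller one. The authors' cell type names were used, and all 4 of the 4 defining markers of each of 10 types lay above the median of the other types in the XY control. For the pre-supporting cells only 1 of the 4 was highest in its own type, since Wt1, Nr5a1 and Gata4 were higher in the Sertoli cells. The coelomic epithelium also had only 1 of its 4 highest in its own type, since Upk3b, Krt19 and Aldh1a2 were higher in the epithelium of the mesonephros, and the mesonephric tubules had 2 of 4. Levels of single genes are counts-per-million values (CPM), the UMIs of a gene scaled to the same total in each sample and cell type. The host transcript Mir17hg stood at 19.8 and 18.2 CPM in the XY and XX controls and at 155.8 and 161.1 CPM in the KO samples. It followed the KO labels, but its counted 3′ end lies outside the deleted microRNAs, and mature microRNAs were not measured.

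Over all cells, the 77 core genes made up 17.4% of the UMIs of the XY control, 19.2% of the E11.5 KO, 14.4% of the E11.75 KO and 19.9% of the XX control. The 7 paralogs together gave 0.157%, 0.162%, 0.114% and 0.168%. The small subunit supplied between 43.6% and 45.4% of the core UMIs in every cell type and sample. The levels of single members, which in a 3′ count need no scaling by gene length, spread widely in the XY control. Rpl13 (4660 CPM), Rps24 (4162 CPM), Rps27a (3970 CPM) and Rpl23 (3964 CPM) were among those counted most often. Rpl27 (236 CPM), Rpl13a (246 CPM), Rpl35 (640 CPM), Rpl29 (708 CPM) and Rpl31 (821 CPM) were counted least, although their proteins are needed in like amounts. The median core gene stood at 2207 CPM, 72 of the 77 passed 1000 CPM, and 62 were among the 100 most counted genes of the XY control pre-supporting cells. The core genes lie on 19 chromosomes. Their messenger RNAs were short, with a median of 886 bases against 2843 over 17449 genes, and a median 3′ UTR of 68 bases against 911.

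Many ribosomal protein genes have processed copies elsewhere in the genome, and reads that match several genes equally can be dropped in such counts. In the last 300 bases of their messenger RNAs, 45 of the 77 core genes had at least 1 stretch of 91 bases, the read length, that also occurs in another annotated transcript, and in 26 this held for at least 50% of the stretches. Rpl10, Rpl9, Rps27 and Rpl36a had no unique stretch at all by this search. They were still counted at 1019, 2521, 1393 and 1124 CPM in the XY control, so shared stretches did not remove all of their reads. How many reads were lost was not tested, and comparisons between genes are less secure than comparisons of the same gene between samples. In the comparisons of pre-supporting cells below, the core genes with and without shared stretches had median log2 ratios over the XY control of 0.32 and 0.31 in the E11.5 KO, -0.25 and -0.18 in the E11.75 KO, and 0.26 and 0.19 in the XX control. In mesonephric mesenchyme the medians were 0.14 and 0.14, -0.36 and -0.27, and 0.23 and 0.18.

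Germ cells gave the largest share of their UMIs to the core genes in every sample. The share in germ cells was 25.4% in the XY control (556 cells), 26.4% in the E11.5 KO (165 cells), 22.1% in the E11.75 KO (152 cells) and 28.4% in the XX control (84 cells). Every other type lay between 11.83% and 22.9%. At the low end stood the mesonephric mesenchyme, with 15.8%, 17.4%, 13.0% and 18.1% in the same order, and the adrenosympathetic cells, with 15.99%, 17.6%, 11.83% and 18.9%. Sertoli cells, which were named in numbers of at least 50 cells only in the XY control and the E11.75 KO, were also low, at 15.9% and 13.2%. The other types were close together in the XY control, between 17.1% and 19.3%. There, the intervals of immune and supporting-like cells, of supporting-like and endothelial cells, and of adrenosympathetic and Sertoli cells overlapped, and their order is not given by these counts. In the XX control the same held for supporting-like and endothelial cells, for tubules and pre-supporting cells, and for coelomic epithelium and immune cells.

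**Figure D1:**
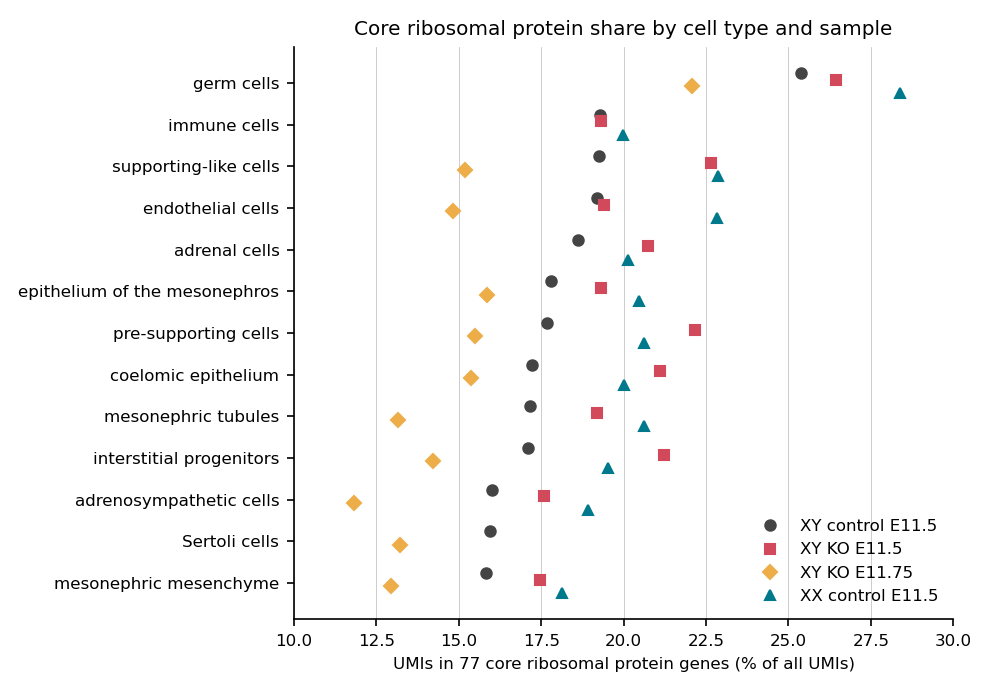
Share of UMIs from the 77 core ribosomal protein genes (percent of all UMIs, horizontal axis, from 10 to 30) in each cell type with at least 50 cells (rows), 1 point per sample, where the 95% intervals are narrower than the points. Germ cells lie to the right of all other types of their sample, between 22.1% and 28.4%, and the E11.75 KO is the leftmost point in each of its types.

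In the pre-supporting cells, the gonadal progenitors that become Sertoli or granulosa cells and that the authors deposited as bipotential progenitors, the core share was 17.7% in the XY control (1641 cells), 22.2% in the E11.5 KO (1084 cells), 15.5% in the E11.75 KO (924 cells) and 20.6% in the XX control (352 cells). The E11.5 KO was highest and the E11.75 KO lowest, with the controls between them. Single cells overlapped between samples. The 10th and 90th percentiles of the share per cell were 13.5% and 21.6% in the XY control, 18.2% and 26.0% in the E11.5 KO, 11.4% and 19.9% in the E11.75 KO, and 16.9% and 24.8% in the XX control. On the log2 scale the summed core differed from the XY control by 0.33 in the E11.5 KO (0.324 to 0.331, 95% interval), by -0.19 in the E11.75 KO (-0.194 to -0.186) and by 0.22 in the XX control (0.219 to 0.226). The 3 comparisons share the XY control sample.

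The differences of the XY samples were also seen among cells of like depth. Pre-supporting cells with 3000 to 5000 UMIs gave 17.5% in the XY control, 22.3% in the E11.5 KO and 14.9% in the E11.75 KO. Those with 5000 to 10000 UMIs gave 17.96%, 22.2% and 16.03%. The XX control had only 25 pre-supporting cells between 3000 and 10000 UMIs. Its 282 cells with 10000 to 30000 UMIs gave 20.8%, against 17.6% in 28 XY control cells and 21.5% in 30 E11.5 KO cells.

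Other measures moved with the samples. Mitochondrial transcripts took 4.53%, 4.74%, 6.18% and 3.44% of the UMIs of pre-supporting cells in the order XY control, the E11.5 KO, the E11.75 KO and XX control, and Gm42418, which overlaps ribosomal RNA, stood at 4372, 3887, 10854 and 5295 CPM. Red cell transcripts, which gonadal cells are not known to make, summed to 2009, 882, 1364 and 617 CPM. The authors' globin limits for keeping XY cells differed, highest in the XY control and lowest in the E11.5 KO, and XX cells were filtered by cluster. Differences in the red cell sums therefore cannot be told apart from that filtering. The part of these measures in the core shares was not tested. With the mitochondrial genes, globin genes and Gm42418 left out of the total, the shares were 18.6%, 23.4%, 16.7% and 21.5%. Those genes are a small part of the total, so leaving them out could hardly change the order of the shares.

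The size of the difference depended on the cell type in the E11.5 KO. Beside the pre-supporting cells, 3 somatic types of the gonad were furthest from the XY control: interstitial progenitors (log2 ratio 0.31), coelomic epithelium (0.29) and supporting-like cells (0.23). The mesonephric tubules (0.16), adrenal cells (0.16), mesonephric mesenchyme (0.14), adrenosympathetic cells (0.14) and epithelium of the mesonephros (0.12) lay lower. Germ cells (0.06), endothelial cells (0.01) and immune cells (0.00, interval -0.01 to 0.01) were nearest to the control. The ratio in pre-supporting cells exceeded that in mesonephric mesenchyme by 0.19 (0.183 to 0.189), that in germ cells by 0.27 and that in endothelial cells by 0.31 on the log2 scale. In the E11.75 KO the summed core was below the XY control in 11 of 11 types, from -0.43 in adrenosympathetic cells to -0.16 in coelomic epithelium. In the XX control it was above in 12 of 12 types, from 0.05 in immune cells to 0.27 in mesonephric tubules.

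Most members lay above the XY control in E11.5 KO pre-supporting cells. A gene was counted as higher or lower when its log2 ratio to the XY control reached 0.32 in size (25% higher or 20% lower). Genes with fewer than 200 UMIs in the 2 samples together were left out. With the runs of a sample pooled, all 77 core genes lay above the XY control there, with a median log2 ratio of 0.32, while 36.3% of all 7910 genes tested did so and their median was -0.09. With run 1 of both samples alone 71 lay above (38.1% of all genes), and Rps28, Rps29, Rps27, Rpl37a, Rpl38 and Rps21 lay below, from -0.23 to -0.0081. With run 2 alone all 77 lay above. Past this limit, 37 core genes were higher and 0 lower, where 7.31% of all genes were higher and 19.0% lower. The small and large subunits had medians of 0.33 and 0.31. TMM factors, which align the bulk of the genes between samples, raised every ratio by 0.09 and the count to 62 higher and 0 lower, with 11.68% of all genes higher and 12.7% lower. Each ratio compares shares of the total UMIs, so a change of the core share by itself moves the other genes the opposite way. The shares and medians of all genes, here and in the comparisons below, are therefore not independent of the core.

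The largest ratio was that of Rps2, a protein of the small subunit at the messenger RNA entry (chr17:24718116-24721929, mm10, plus strand). Rps2 stood at 1584 CPM in the XY control, 2339.6 in the E11.5 KO, 1209 in the E11.75 KO and 2189 in the XX control, a log2 ratio of 0.56 for the E11.5 KO (0.53 to 0.60). It was high in that sample and in the XX control and low in the later KO. Rpl32, of the large subunit, ran 2600.4, 3731, 1918 and 3254 CPM in the same order (0.52 in the E11.5 KO). Rplp0, which anchors the stalk that recruits translation factors, ran 2612, 3709.8, 2179 and 3087 CPM (0.51). Rpl12, at the base of that stalk, ran 1622, 2297, 1503 and 1843 CPM (0.50). In these 4 genes the E11.5 KO was highest and the E11.75 KO lowest.

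The smallest ratios in the E11.5 KO were those of Rpl10, Rpl4, Rpl35, Rps27 and Rpl37a. Rpl10, which joins the large subunit late in its assembly and lies on the X chromosome, stood at 1173 CPM in the XY control, 1233 in the E11.5 KO, 859 in the E11.75 KO and 1554 in the XX control (0.07 for the E11.5 KO, 0.03 to 0.12). Rpl4 stood at 1005, 1127, 1178 and 922 CPM (0.17) and was the one of these 5 with its lowest value in the XX control. Rpl35 (640, 721, 579 and 788 CPM), Rps27 (1706, 1939, 1648 and 1793 CPM) and Rpl37a (2910, 3330, 3338 and 3181 CPM) had ratios between 0.17 and 0.19. Over the 12 cell types, Rps2 and Rplp0 were above the median core gene of the same comparison in 12 of 12 in the E11.5 KO, and Rpl10, Rpl4 and Rpl37a in 0 of 12. In all, 8 of the 77 core genes were at 12 of 12 and 7 at 0 of 12. These counts are a description, since the types come from the same pair of samples and include the pre-supporting cells by which the genes were picked. In mesonephric mesenchyme Rps2 was the single core gene past the limit, 1 higher and 0 lower, with a log2 ratio of 0.43. There the median of the core was 0.14, and 4.53% of 11890 genes were higher and 12.2% lower. Run 1 and run 2 alone gave 2 and 4 core genes higher, with 4.09% and 4.11% of all genes, and TMM factors gave 6, with 8.06% of all genes.

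**Figure D2:**
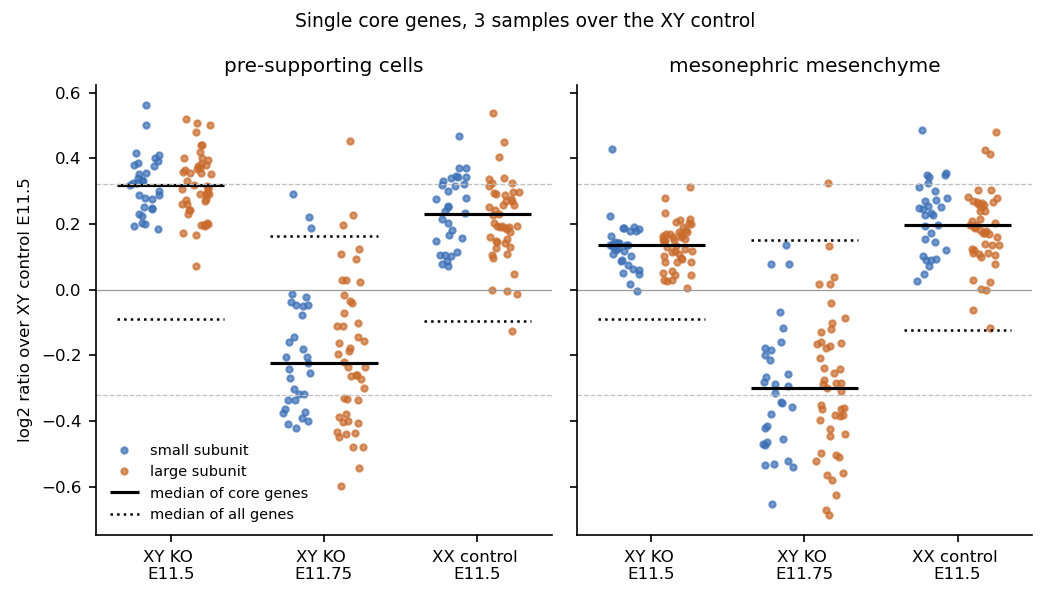
Log2 ratio over the XY control (vertical axis) of each of the 77 core genes in pre-supporting cells and mesonephric mesenchyme, small and large subunit in blue and orange, with the medians of the core (solid line) and of all genes (dotted line) and the limit of 0.32 in size (dashed). With the runs pooled, all points of the E11.5 KO lie above 0 in pre-supporting cells around a median of 0.32, those of the E11.75 KO spread from -0.60 to 0.45, and 73 of the XX control lie above 0.

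In E11.75 KO pre-supporting cells the core went the other way, with a median log2 ratio of -0.22 against 0.16 for all genes. Only 12 of the 77 lay above the XY control, as did 62.1% of all genes tested (4 with TMM factors, and 47.01% of all genes), 1 was higher past the limit and 25 were lower, where 36.5% of 7931 genes were higher and 18.5% lower. TMM factors decreased every ratio by 0.20 and gave 0 higher and 51 lower, with 20.3% of all genes higher and 29.7% lower. In mesonephric mesenchyme 1 core gene was higher and 36 were lower, with a median of -0.30, while 33.4% of 11378 genes were higher and 17.2% lower. TMM factors gave 0 higher and 59 lower there, with 19.4% of all genes higher and 26.1% lower. The 5 lowest ratios in pre-supporting cells belonged to genes of the large subunit, although the small and large subunits had medians of -0.22 and -0.23 there. Rpl19 (chr11:98026710-98030492, mm10, plus strand) stood at 2850 CPM in the XY control, 3369 in the E11.5 KO, 1882 in the E11.75 KO and 3244 in the XX control, a log2 ratio of -0.60 for the later KO. Rpl15 followed with 2633, 3270, 1805 and 3011 CPM (-0.54), Rpl29 with 739, 946, 530 and 1011 CPM (-0.48), Rpl9 with 2722, 3219, 1953 and 3252 CPM (-0.48) and Rpl10 with -0.45. The E11.75 KO was the lowest sample in all 5.

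A small group went against this direction. Rpl38, a large subunit protein whose loss in mice changes the axial skeleton (chr11:114668524-114672331, mm10, plus strand), stood at 2022 CPM in the XY control, 2636 in the E11.5 KO, 2768 in the E11.75 KO and 2002 in the XX control. The log2 ratio of Rpl38 was 0.45 in the later KO (0.42 to 0.49) and -0.01 in the XX control. Rps28 ran 2993, 3426, 3661 and 3156 CPM (0.29 in the later KO), and Rps29 ran 2783, 3298, 3248 and 2993 CPM (0.22). Rpl4 (0.23) and Rpl37a (0.20) completed the 5 highest. Under TMM factors Rpl38 stayed at 0.25 and Rps28 at 0.09, Rpl4 and Rps29 fell to 0.03 and 0.02, and Rpl37a reached 0. All 5 lay above the median core gene in 11 of 11 cell types of the E11.75 KO, as did 25 core genes in all, and Rpl19 and Rpl15 in 0 of 11, as did 26 in all, so these counts do not mark the genes out.

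In the XX control the core again lay above the XY control. Its median in pre-supporting cells was 0.23 against -0.10 for all genes, 73 of 77 were above 0, as were 36.3% of all genes, and 15 were higher and 0 lower past the limit, where 5.77% of 7992 genes were higher and 22.8% lower. TMM factors raised every ratio by 0.08 and the count to 35 higher and 0 lower, with 9.53% of all genes higher and 16.3% lower. With run 1 of both samples alone 23 were higher, and with run 2 alone 6, with 7.07% and 7.03% of all genes. In mesonephric mesenchyme 9 were higher and 0 lower, with a median of 0.20, while 4.37% of 11624 genes were higher and 25.8% lower. TMM factors raised every ratio there by 0.11 and gave 35 core genes and 10.8% of all genes higher. Run 1 and run 2 alone gave 17 and 5 core genes higher, with 4.29% and 4.68% of all genes. Rpl27 (208 CPM in the XY control, 243 in the E11.5 KO, 158 in the E11.75 KO and 301 in the XX control) had the largest ratio, 0.54. It was followed by Rps2 (0.47), Rpl29 (0.45), Rpl10 (0.40) and Rps12 (0.37), the last with 1687, 2115, 1300 and 2182 CPM. Rpl4 was lowest at -0.12, and Rpl38 (-0.01), Rpl14 (0.00), Rpl5 (0.00) and Rpl13a (0.05) had intervals that held 0. Under TMM factors these 4 intervals lay above 0, with Rpl38 at 0.06, and Rpl4 was at -0.05. Of the 4 core genes on the X chromosome, Rpl10, Rps4x and Rpl36a had XX ratios of 0.40, 0.34 and 0.28, above the core median of 0.23, and Rpl39 had 0.11, below it. Rpl10, Rps2 and Rpl27 lay above the core median in 12 of 12 types of the XX control, as did 16 core genes in all.

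The libraries of a sample were compared as well, since the XY control, the E11.5 KO and XX control were each made in 2 technical runs, marked in the cell names, and the E11.75 KO in 1. In pre-supporting cells the runs gave close core shares: 17.5% and 17.9% in the XY control, 21.7% and 22.6% in the E11.5 KO, and 20.8% and 20.4% in the XX control. Within the core they differed in the E11.5 KO. There, 10 of the 77 core genes were higher in run 2 than in run 1 past the same limit, where 3.60% of all 4894 genes tested were. In the mesonephric mesenchyme of the same sample 10 core genes were also past the limit, with 1.77% of 10725 genes. Rps29 went from 2426 to 4091 CPM in pre-supporting cells (0.75 on the log2 scale), Rpl38 from 1971 to 3241 CPM (0.72) and Rps28 from 2578 to 4197 CPM (0.70). Rps27 (0.55), Rps21 (0.53), Rpl39 (0.51), Rpl37a (0.46), Rpl37 (0.46), Rpl41 and Rpl36 were the others. The run to run ratios of the core stayed between -0.19 and 0.14 in the XY control and between -0.17 and 0.15 in the XX control, and their SD over genes was 0.06 and 0.05 there against 0.22 in the E11.5 KO.

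The 10 genes were among the shortest of the core. Their messenger RNAs ran from 345 to 835 bases with a median of 447, against a median of 937 in the other 67, of which 25 were no longer than 835 bases. They gave 14.5% of the core UMIs of the XY control pre-supporting cells. With run 1 of both samples alone, the E11.5 KO over the XY control gave -0.031 for Rpl38, -0.23 for Rps28 and -0.18 for Rps29. With run 2 alone it gave 0.67, 0.50 and 0.53, so the place of these genes in that comparison depends on the run. Rps2, which is not among them, gave 0.66 and 0.46. Rpl38, Rps28, Rps29 and Rpl37a were also 4 of the 5 highest core genes in the E11.75 KO, whose 1 run leaves no such comparison. Across the 77 genes, the ratio of run 2 to run 1 in the E11.5 KO and the ratio of the E11.75 KO to the XY control had a Spearman correlation of 0.69 in pre-supporting cells and 0.67 in mesonephric mesenchyme, given as a description since genes are not independent. The ratio of run 2 to run 1 in the XX control, where no core gene passed the limit, had correlations of 0.52 and 0.45 with the same ratio of the E11.75 KO. Whether the position of these genes in the later KO reflects its library was not tested. Without the 10 genes the summed core ratios in pre-supporting cells were 0.34 in the E11.5 KO, -0.26 in the E11.75 KO and 0.24 in the XX control.

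**Figure D3:**
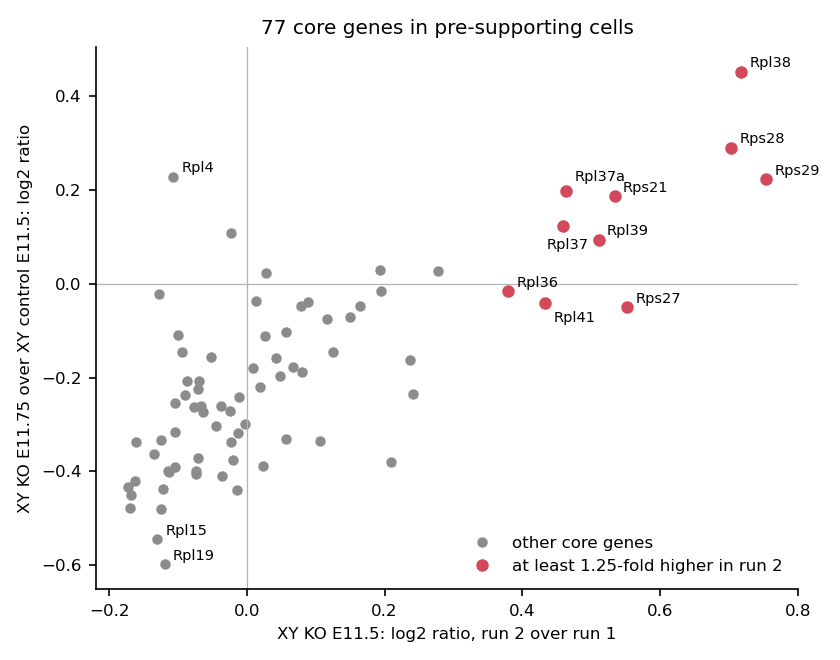
Log2 ratio of run 2 to run 1 in the E11.5 KO (horizontal axis) against the log2 ratio of the E11.75 KO to the XY control (vertical axis) for the 77 core genes in pre-supporting cells. The 10 genes past the limit between runs (red) include Rpl38, Rps28 and Rps29 at the top right, and Rpl19 and Rpl15 lie at the bottom left.

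Messenger RNA length moved with the ratios of genes outside the family too, above all in the E11.75 KO. Among other genes of its pre-supporting cells, the median log2 ratio was -0.32 below 600 bases, -0.46 from 600 to below 1000 bases, -0.22 from 1000 to below 2000, 0.17 from 2000 to below 4000 and 0.42 from 4000 bases upward. In the same order, the core medians there were -0.04 (17 genes), -0.30 (32 genes), -0.24 (23 genes) and -0.23 (4 genes), with 1 core gene in the longest class at -0.34. The core thus lay above other genes below 1000 bases, close to them from 1000 to below 2000 and below them in the longer classes. In the E11.5 KO the medians of other genes ran from -0.03 in the shortest class to -0.13 in the longest, and the core medians from 0.28 in the shortest class to 0.34 in the next. In the XX control other genes stood at 0.07 below 600 bases and at 0.08 from 600 to below 1000, and ran to -0.20 in the longest class. The core medians there were 0.14, 0.29, 0.19 and 0.18, with the 1 longest gene at 0.34. In the E11.5 KO and the XX control the core lay above other genes in each of the 5 classes. Each length is that of 1 annotated transcript, the longest among those ranked equal, and need not be the transcript used in these cells. The longest core entries, Rps15a (5179 bases) and Rps20 (3706 bases), owe most of that length to annotated 3′ UTRs of 4728 and 3167 bases. The longer classes, with few core genes, may therefore not compare messages of like length. The part of length in the core ratios was not tested.

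**Figure D4:**
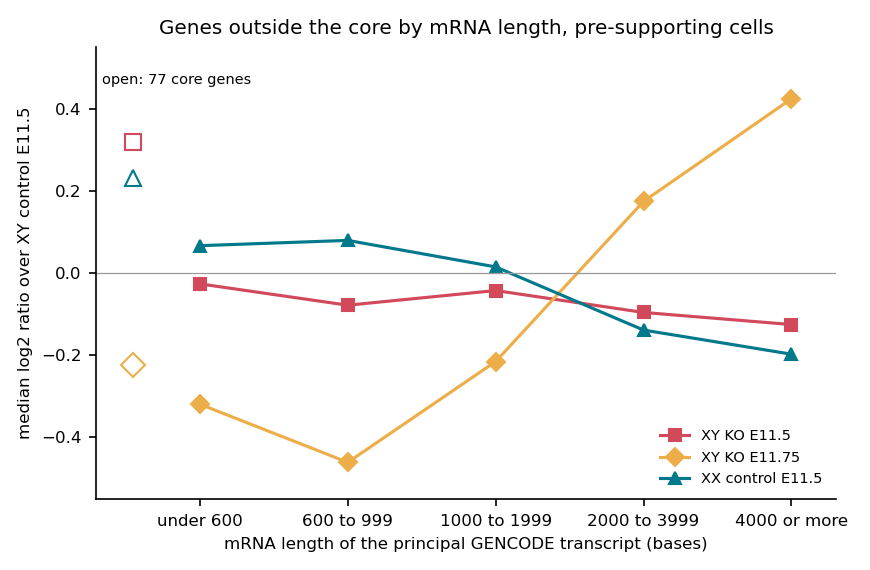
Median log2 ratio over the XY control (vertical axis) of genes outside the core in pre-supporting cells, in 5 classes of messenger RNA length in bases (horizontal axis), with 1 line per sample and the core median as an open symbol at the left. In the E11.75 KO the line runs from -0.32 and -0.46 in the short classes to 0.42 in the longest, and its open symbol (-0.22) lies above these short classes, level with the middle class and below the longest. The open symbols of the E11.5 KO (0.32) and the XX control (0.23) lie above all of their lines.

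Genes that work with the ribosome were described from lists of known members, by counts in pre-supporting cells, to be read against the shares of all genes past the limit: 7.31% higher and 19.0% lower in the E11.5 KO, 36.5% and 18.5% in the E11.75 KO, and 5.77% and 22.8% in the XX control. The TOP messenger RNAs outside the ribosome, which encode elongation factors and RNA binding proteins, were nearest to the core in the E11.5 KO: 6 of 17 were higher and 0 lower, with a median of 0.28. Npm1, a nucleolar assembly factor (0.49), Eef1b2 (0.47) and Eef2, which moves the ribosome along the messenger RNA (0.43), were highest, and Tpt1 (-0.09) and Pabpc1 (0.01) lowest. In the E11.75 KO, 3 were higher and 5 lower (median -0.07), and in the XX control 1 was higher and 1 lower (0.13). Fau and Rps27rt, which the naming rule left out, also lay above the XY control in the E11.5 KO, with 0.26 and 0.45.

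Ribosome biogenesis genes, which transcribe and process ribosomal RNA, moved less in the E11.5 KO. Of 37 tested, 3 were higher and 0 lower, with a median of 0.13. Rrp9 and Gnl3 (both 0.37) were highest, while Rrs1 (-0.32) and Polr1b (-0.26) were lowest without counting as lower. In the E11.75 KO, 13 were higher and 6 lower (0.12), close to the shares of all genes there. In the XX control 1 of 35 was higher and 10 lower (-0.16), also near those of all genes. The mitochondrial ribosomal proteins, which build a separate ribosome, did not follow the core in the E11.5 KO, where 0 of 77 were higher and 6 lower (median -0.04, Mrps11 lowest at -0.69). In the E11.75 KO, 1 was higher and 48 were lower (-0.42), and in the XX control 2 were higher and 0 lower (0.07). Of 26 initiation factors, 1 was higher (Eif4ebp1, a repressor of cap-dependent initiation, 0.54) and 0 lower in the E11.5 KO (median 0.02), 3 were higher and 11 lower in the E11.75 KO (-0.31), and 2 were higher and 3 lower in the XX control (-0.03).

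The MYC network, which controls ribosomal genes in many cells, showed 1 higher and 2 lower of 8 tested in the E11.5 KO (median 0.06). Mxi1 (0.40) was higher, Mxd1 (-0.79) and Mxd4 (-0.53) were lower, and Mycn was at 0.30, short of the limit. It showed 3 higher and 0 lower in the E11.75 KO (0.21) and 0 higher and 3 lower in the XX control (-0.28). The p53 response list, which includes genes known to rise when ribosome assembly fails, showed 1 higher and 2 lower of 9 in the E11.5 KO (-0.04): Cdkn1a at 0.68, Ccng1 at -0.65 and Trp53inp1 at -0.53. The counts were 3 higher and 2 lower in the E11.75 KO (0.12), and 1 higher and 5 lower of 8 in the XX control (-0.37). For these short lists, the counts of both in the E11.5 KO and those of p53 response in the E11.75 KO lay near the shares of all genes. Of the 8 snoRNA host genes on a list that does not hold every such gene, only 3 were in the count table. These 3, Snhg12 (0.69), Epb41l4aos (0.53) and Snhg6 (0.43), were all higher in the E11.5 KO. In the E11.75 KO 1 was higher and 0 lower (0.28), and in the XX control 1 was higher and 1 lower (-0.02). Red cell genes, listed as markers of another cell type, showed 1 higher and 5 lower of 7 in the E11.5 KO (-0.98), 2 higher and 4 lower in the E11.75 KO (-0.42) and 0 higher and 6 lower in the XX control (-1.26). The red cell counts too cannot be told apart from the authors' filtering by globin, which differed between the samples. Medians of these lists that are opposite in sign to the TMM shifts given above, and smaller, change sign with those factors, among them those of the mitochondrial ribosomal proteins and p53 response in the E11.5 KO and of ribosome biogenesis and p53 response in the E11.75 KO.

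The core was not made up in the same way in every cell type. Germ cells exceeded pre-supporting cells of the same sample in the summed core by 0.52 (XY control), 0.25 (the E11.5 KO), 0.51 (the E11.75 KO) and 0.46 (XX control) on the log2 scale. In the XY control, 57 of the 77 core genes were higher and 0 lower in germ cells, where 31.9% of 8104 genes were higher and 46.0% lower. In the E11.5 KO, 30 were higher and 2 lower, where 31.4% of 5944 genes were higher and 43.8% lower, so the share of higher core genes was nearer to that of all genes. For the E11.75 KO the counts were 55 higher and 0 lower (31.7% and 45.5% of 5755 genes), and for the XX control 55 higher and 1 lower (30.0% and 48.0% of 6553 genes). The acidic stalk proteins Rplp1 and Rplp2, which bind the translation factors, led the way. Rplp1 stood at 6479 CPM in germ cells and 2645 in pre-supporting cells of the XY control (1.29), and Rplp2 at 3826 and 1624 CPM (1.24). Rps2 (3612 and 1584 CPM, 1.19) and Rpl14 (3588 and 1750 CPM, 1.04) followed. Rps27 (1389 and 1706 CPM, -0.30) and Rpl10 (994 and 1173 CPM, -0.24) lay below 0 but short of the limit, and Rpl41 was level (0.00).

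As a share of all core UMIs, Rplp1, Rps2, Rps27, Rpl10 and Rplp2 varied most over the 13 cell types of the XY control. The median SD of the log2 share was 0.087 over the 75 core genes with at least 200 UMIs in every type. Rplp1 ran from 1.38% of the core UMIs in supporting-like cells to 2.55% in germ cells, with 2.23% in immune cells. In germ cells it gave 2.55%, 2.52%, 2.79% and 2.39% in the 4 samples, against 1.498%, 1.48%, 1.59% and 1.42% in pre-supporting cells. Rps2 ran from 0.804% in supporting-like cells to 1.42% in germ cells, and Rplp2 from 0.876% to 1.51% in the same types. Rps27 ran the opposite way, from 0.547% in germ cells to 0.989% in supporting-like cells, and Rpl10 from 0.391% in germ cells to 0.664% in pre-supporting cells. In all 4 samples Rplp1, Rplp2 and Rps2 had a larger share in germ cells than in pre-supporting cells, and Rps27 and Rpl10 a smaller one. The germ cells were deeper than the pre-supporting cells, with a median of 11991 against 4522 UMIs per cell in the XY control.

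Among the paralogs, Rpl39l and Rpl10l stood far higher in germ cells than in any other type. Rpl39l, a relative of Rpl39 (chr16:10170226-10174911, mm10, plus strand), whose protein lines the exit tunnel, is known from germ cells of the testis. In germ cells Rpl39l stood at 452.5 CPM in the XY control, 379 in the E11.5 KO, 389 in the E11.75 KO and 346 in the XX control. All other types lay at or below 8.13, 14.2, 9.59 and 13.8 CPM in the same order. In pre-supporting cells it was at 5.83, 0.829, 3.27 and 1.33 CPM, which is 1.29%, 0.219%, 0.840% and 0.383% of the germ cell level. The same percentages for 4 germ cell markers were 0.881%, 0.280%, 0.442% and 0.483% for Dppa3, 1.37%, 0.338%, 1.26% and 0.773% for Pou5f1, 0.514%, 0.135%, 0.211% and 0.839% for Dazl, and 2.69%, 4.80%, 3.13% and 1.01% for Ddx4. The percentage of Rpl39l lay between the lowest and the highest of these markers in 3 samples and below all 4 in the XX control. Whether these low counts come from free germ cell RNA was not tested. After thinning to 3000 UMIs per cell, Rpl39l was counted in 73.0%, 60.8%, 66.2% and 53.6% of germ cells and in 1.57%, 0.194%, 1.196% and 0.287% of pre-supporting cells. Of the Rpl39 and Rpl39l UMIs of germ cells together, Rpl39l made up 13.9%, 11.69%, 12.1% and 8.29%. Rpl39 was among the core genes that differed between the runs of the E11.5 KO in pre-supporting cells. The part of the run in these shares was not tested. The germ cell level of Rpl39l was below the XY control in the other samples, by log2 ratios of -0.25, -0.22 and -0.39.

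Rpl10l, a retrogene copy of Rpl10 known from meiotic male germ cells (chr12:66283379-66284401, mm10, minus strand), was far rarer. It stood at 33.2, 19.1, 52.6 and 35.4 CPM in germ cells of the 4 samples, from 232, 39, 82 and 128 UMIs, and at most at 0.722, 1.10, 0.345 and 1.63 CPM in any other type. Its germ cell ratios over the XY control were -0.79 in the E11.5 KO (-1.33 to -0.31), 0.67 in the E11.75 KO (0.28 to 1.03) and 0.09 in the XX control (-0.23 to 0.41). Rpl3l, the striated muscle relative of Rpl3, had only 6, 1, 2 and 2 UMIs in germ cells and no level can be read from it.

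Rps27l, a relative of Rps27 known as a p53 target (chr9:66946086-66949516, mm10, plus strand), was present in every type and highest in germ cells. The germ cell levels were 1087, 1246, 1127 and 1105 CPM, and the other types lay between 346 and 475, 334 and 570, 208 and 307, and 339 and 542 CPM. Rps27l made up 43.9%, 46.4%, 45.6% and 44.3% of the UMIs of both genes there, against 17.2%, 15.4%, 13.0% and 17.8% in pre-supporting cells. Rpl36al was higher in germ cells as well, at 412, 384, 306 and 501 CPM, with the highest other type at 315, 382, 183 and 373 CPM, so that in the E11.5 KO germ and immune cells were nearly level. The shared stretches of Rps27 and Rpl36a, named above, may bear on these ratios to partners, which was not tested. Rps27 was also among the core genes that differed between the runs of the E11.5 KO. The part of the run in the Rps27l shares was not tested either.

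Rpl22l1 and Rpl7l1 were spread evenly. Rpl22l1, which can take the place of Rpl22 (chr3:28805436-28807424, mm10, plus strand), stood at 773, 896, 721 and 814 CPM in germ cells, within the ranges of other types of 694 to 1004, 782 to 1056, 484 to 756 and 720 to 960 CPM. It gave 24.1%, 25.5%, 25.6% and 23.6% of the Rpl22 and Rpl22l1 UMIs in germ cells and 41.7%, 36.3%, 36.8% and 36.7% in pre-supporting cells. Rpl7l1, a nucleolar relative of Rpl7, stood at 146, 147, 118 and 153 CPM in germ cells and never passed 167 CPM elsewhere. In pre-supporting cells of the E11.5 KO, the paralogs expressed there were nearer to the XY control than the core median of 0.32: the log2 ratios were 0.04 for Rpl22l1, 0.00 for Rps27l, 0.05 for Rpl36al and -0.01 for Rpl7l1, all with intervals that held 0. With TMM factors they were 0.13, 0.09, 0.14 and 0.08, and only the interval of Rpl7l1 still held 0. They were -0.49, -0.53, -0.81 and -0.23 in the E11.75 KO, and in the XX control -0.07, 0.14, 0.29 and -0.22, where TMM factors brought Rpl22l1 to 0.00.

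**Figure D5:**
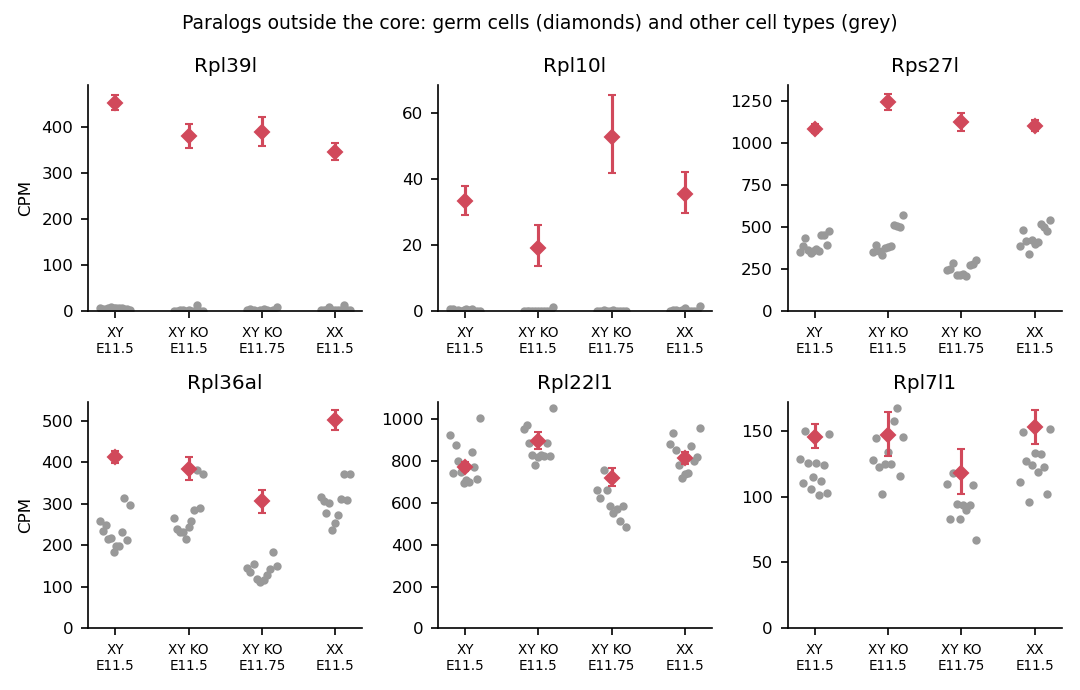
Level in CPM (vertical axis, from 0) of 6 paralogs in the 4 samples, with germ cells as red diamonds with 95% Poisson intervals and every other cell type as a grey point. For Rpl39l and Rpl10l the germ cells (346 to 452.5 and 19.1 to 52.6 CPM) stand above grey points at or near 0, for Rps27l they stand above a level found in every type, and for Rpl22l1 and Rpl7l1 they lie among or beside the other types.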

How the data were processed

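The authors made the deposited table of whole UMI counts per gene and cell with Cell Ranger 6.1.1 (mm10 with a second Sry exon) from Chromium 3′ libraries, merged technical runs in Seurat, filtered XY cells by mitochondrial, globin and UMI limits and XX cells by cluster, removed doublets with DoubletFinder, and named cell types after integration. The counts themselves were not integrated. The methods give the cell numbers of the KO stages in exchanged order, and the sample labels were followed, with which the single run of the E11.75 KO fits. The deposited annotation also holds a percentage of Rps transcripts per cell, which was not used.

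Here, counts were summed per sample and cell type (at least 50 cells) with Python 3.11.15, numpy 2.4.6, pandas 2.3.3 and scipy 1.17.1, and divided by the total to give CPM. Intervals are exact 95% binomial or Poisson ones, except those of differences between the ratios of cell types, which use a normal approximation. Log2 ratios used a prior count of 0.5, and ratios across all genes a minimum of 200 UMIs over both samples. TMM factors were from edgeR 4.0.16 in R 4.3.3. No p-value was computed, with 1 sample per group. Genes named in comparisons were the 5 highest and 5 lowest core ratios, the 5 most and least counted, the 5 with the most variable share of the core, all paralogs, and the extremes of each list, of which a few are not reported here. The ratio intervals were tested on simulated Poisson counts. These had no spread between cells, runs or embryos, so the test covers counting error only. Gene positions were from an mm10 annotation that held 98.7% of the symbols. The members and lists were chosen with earlier results of these data known.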

Additional observations from a re-analysis of the deposited data

Results flagged for a closer look

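In pre-supporting cells the summed core genes, as a share of all UMIs, lay above the XY control in the E11.5 KO (log2 ratio 0.33) and below it in the E11.75 KO (-0.19). In the E11.75 KO other genes of like length were lower still below 600 bases (median -0.32, core -0.04) and from 600 to below 1000 (-0.46, core -0.30). From 1000 to below 2000 bases the medians were close (-0.22, core -0.24). In the longer classes of annotated length, which hold few core genes, the core lay below other genes. The difference between the stages was not tested, with 1 sample each and no control at E11.75.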

How the results depend on the processing

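The summed core ratios of pre-supporting cells kept their direction under all alternatives tried. In the order E11.5 KO, E11.75 KO and XX control they were 0.42, -0.39 and 0.30 with TMM factors, 0.34, -0.20 and 0.25 as a mean over cells, 0.37, -0.18 and 0.27 with Sertoli cells added, 0.32, -0.17 and 0.25 with run 1 only, and 0.33 and 0.19 with run 2 only (E11.5 KO and XX control). Leaving mitochondrial, globin and Gm42418 counts out of the total gave -0.16 in the E11.75 KO and 0.20 in the XX control, and cells of 3000 to 10000 UMIs gave 0.34 in the XX control, from 25 XX cells. Chosen after seeing the data, the core without the 10 run-dependent genes gave 0.34, -0.26 and 0.24.

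Core genes past the limit in pre-supporting cells were 62 higher with TMM factors in the E11.5 KO. They were 0 higher and 51 lower with TMM factors in the E11.75 KO, and 2 higher with the other total. In the XX control they were 35 with TMM factors, 23 with run 1 and 6 with run 2. In mesonephric mesenchyme they were 6, 2 and 4 higher in the E11.5 KO and 35, 17 and 5 higher in the XX control (TMM factors, run 1, run 2), and 0 higher and 59 lower in the E11.75 KO with TMM factors. The counts by run were added after seeing the data. Other UMI minimums could not change the counts, since every core gene stood above all of them.

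The core share of pre-supporting cells was 17.6%, 15.3% and 20.9% as a mean over cells (XY control, E11.75 KO, XX control), 17.7%, 22.2% and 15.5% in cells of 3000 to 10000 UMIs (the 3 XY samples), and 18.6%, 23.4%, 16.7% and 21.5% with the other total. In germ cells it was 25.0%, 26.1% and 21.6% as a mean over cells (the 3 XY samples), 24.1% and 21.0% in the window (XY control, E11.75 KO), and 26.5%, 27.7%, 23.6% and 29.4% with the other total. Of the 103 single-gene ratios, TMM factors moved 93 beyond their counting interval and a prior count of 5 none of them. Run 1 alone moved 58 and a further 1, Rpl38 in the E11.5 KO, described below. Run 2 alone moved 52 of the 74 ratios it could give, which leave out the E11.75 KO with its 1 run. In the E11.5 KO with run 1, Rpl38, past the limit with the runs pooled, changed sign to -0.031. Rps28 (0.20 pooled) and Rps29 (0.24), short of the limit, changed sign to -0.23 and -0.18, as did Rps27, Rpl37a and Rps21. The core genes above the XY control in pre-supporting cells were 71 of 77 with run 1 in the E11.5 KO, and 4 with TMM factors in the E11.75 KO against 12. No paired analysis was possible because each group was 1 sample. Counting error is small for the summed core, and without replicate samples the spread between samples of a group is unknown.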
